A study of Mus musculus with 83 samples.

Results

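The transcriptome of proliferating brown preadipocytes was set against that of the mature adipocytes the same cells became, so that only the net change over the whole course of differentiation counts. The 2 culture libraries compared were those of day -3 and day 7. Genes were joined by symbol, and every gene whose larger value was at least 1 FPKM (fragments scaled by transcript length and by the size of the library) was kept, which gave 10828 of the 11144 genes listed in the culture tables. The cells were brown preadipocytes of mice on a C57BL/6J background with the genotype Pparg-flox/flox, isolated from interscapular brown fat of newborns and immortalized by a retrovirus carrying the SV40 large T antigen, a viral protein that binds the p53 and RB proteins. All culture libraries share the floxed alleles and the large T antigen, and the labels of these samples name no Cre. At day -3 the cells were proliferating in growth medium. At confluence on day 0 they were induced with dexamethasone (2 µg/ml), IBMX (0.5 mM), indomethacin (0.125 mM), insulin (0.02 µM) and the thyroid hormone T3 (1 nM). From day 2 they were kept in 10% FBS with insulin and T3, and on day 7 they were labelled as mature. Levels on day 0 and day 2, and in interscapular brown adipose tissue of C57BL/6J mice aged 16 weeks, are given where they help to place a gene.

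Each day was 1 library, so no difference below has a replicate check and no test was made. Differences are of log2(FPKM + 1), a scale that understates them for genes of low level. A gene counts as higher or lower when this difference is at least 1 in size, that is 2-fold on this scale. In a culture measured in bulk, fewer cells of a type and less RNA per cell cannot be told apart. The fragments sequenced per library are unknown.

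Brown preadipocytes are fibroblast-like cells that attach to their matrix through integrins, carry actin stress fibres and divide. During adipogenesis the C/EBP factors and PPARγ switch on the genes of the fat cell, which rounds up and fills with lipid droplets. Brown fat cells are also rich in mitochondria, which burn fatty acids to make heat through uncoupling protein 1.

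The labels were set beside marker genes. The lists were chosen with earlier results of these data known, so this is a description and not an independent check. Of the 23 compared genes of secreted fat cell proteins 20 were at least 2-fold higher on day 7. Of the 29 compared genes of preadipocyte identity and of brakes on adipogenesis 19 were at least 2-fold lower. In that list 3 were higher, among them the precursor marker Pdgfra, at 1.64 FPKM on day -3 and 11.7 on day 7. Over all 10828 compared genes these shares were 20.3% higher and 14.7% lower. Ucp1, the uncoupling protein that defines brown fat, was listed at 0 on day -3 and at 1.22 FPKM on day 7, while it was at 1015 RPKM in the tissue. Of the markers of other cell types 4 of 13 macrophage markers, 3 of 11 endothelial markers, 4 of 9 nerve and Schwann cell markers, 5 of 8 pericyte markers and 1 of 10 lymphocyte markers were listed. The macrophage list held 0.00945% of the listed FPKM on day -3 and 0.0218% on day 7, and its one member past the size rule was Lgals3, galectin 3, which fibroblasts also make, at 29.6 and 67.9 FPKM. The macrophage marker Cd68 was at 3.40 FPKM on day -3 and 4.20 on day 7, and of the endothelial markers Kdr was at 1.07 and 0.0668 FPKM and Eng, endoglin, which fibroblasts also make, at 34.1 and 6.75. The pericyte markers summed to 117 FPKM on day -3 and 104 on day 7, with 2 members higher, Des and Notch3, and 0 lower. Their part in the differences below was not tested. A gene that is not listed in the culture tables cannot be taken as low.

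Of the compared genes, 2196 were at least 2-fold higher on day 7 and 1597 at least 2-fold lower, so that 35% of genes differed and the other 7035 (65%) did not. The median difference over all compared genes was 0.07. The upward side reached further. A difference of at least 4 on the log2 scale was seen for 140 genes upwards (1.29%) and for 46 downwards (0.425%), and one of at least 6 for 39 genes upwards (0.36%) and 0 downwards. Genes that were below 1 FPKM on day -3 and at least 10 on day 7 numbered 164, against 44 in the opposite direction. Of the 164, 22 reached 100 FPKM on day 7, and of the 44, 0 had been at 100 FPKM on day -3. Genes that came up from below 1 FPKM thus outnumbered those that went below it.

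The most abundant genes were different ones at the 2 ends. Choosing genes by a high level in a library leans their difference towards that library, so the shares that follow are a description. Among the 624 genes of at least 100 FPKM on day -3, 44.9% were at least 2-fold lower on day 7 and 4.81% at least 2-fold higher. Among the 530 genes of at least 100 FPKM on day 7, 40.2% were at least 2-fold higher on day 7 than on day -3 and 11.9% at least 2-fold lower. The most abundant transcript on day -3 was Acta2, smooth muscle actin, at 6017 FPKM, followed by Actb, the cytoplasmic beta-actin, at 5426, and Vim, the intermediate filament vimentin, at 3613. At day 7 these 3 were at 223, 713 and 859 FPKM. In their place the day 7 library was led by Fabp4, the fatty acid-binding protein of fat cells, at 4070.2 FPKM, and by Scd1, which desaturates stearate, at 2495. At day -3 Fabp4 had been at 37.6 FPKM and Scd1 at 41.5. Of the 12 most abundant genes of each library only Eef1a1, a translation elongation factor, was on both lists, at 1870.0 and 1244 FPKM.

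**Figure D1:**
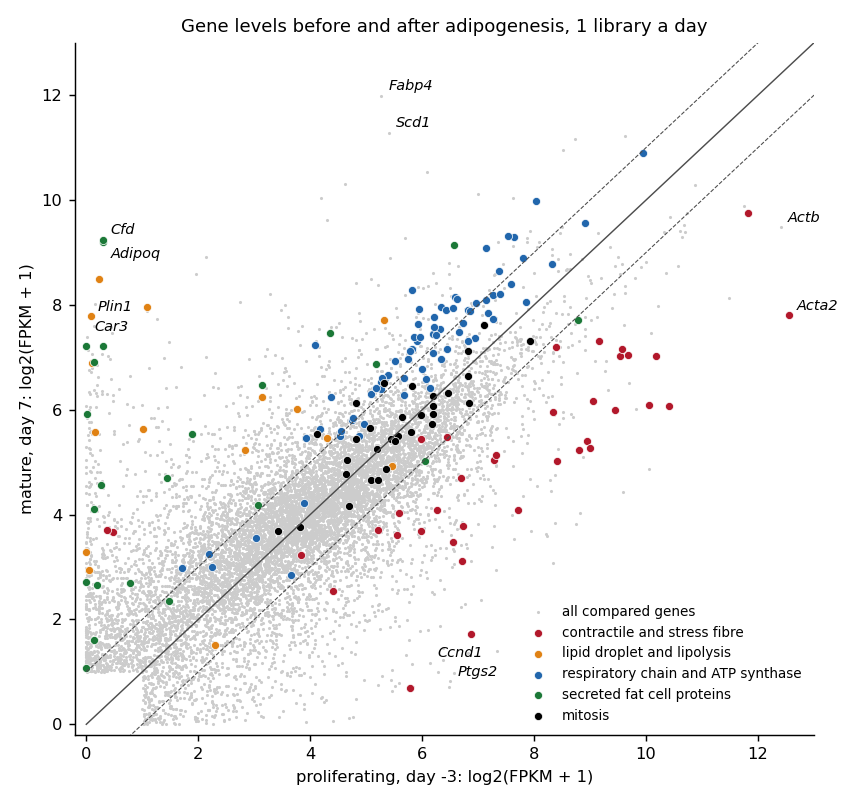
Each point is 1 of the 10828 compared genes, with log2(FPKM + 1) of the day -3 library on the x axis and of the day 7 library on the y axis, 1 library a day. The solid line marks equal levels and the dashed lines a difference of 1; contractile genes (red) lie below the lower line for 32 of 37, and lipid droplet genes (orange) above the upper line for 13 of 15.

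The 5 widest upward differences were those of the genes Cfd, Adipoq, G0s2, C3 and Plin1, for secreted and lipid droplet proteins. Cfd, which encodes the complement protease adipsin, was at 0.225 FPKM on day -3, 0.345 on day 0, 6.30 on day 2 and 605 on day 7, a difference of 8.95. Adipoq, the hormone adiponectin, was at 0.234, 0.260, 142 and 590.4 FPKM at the same times. Both were near 0 up to confluence, and Adipoq reached a level of 100 FPKM by day 2, when Cfd had not. Of the 23 genes of secreted fat cell proteins 20 were higher, 2 were lower, and the median difference was 3.12. Rbp4, the carrier of retinol in blood, was at 0.223 FPKM on day -3 and 148 on day 7. Retn, which encodes resistin, was at 0.106 and 119 FPKM, and Apoc1, an apolipoprotein, was listed at 0 and at 148. Vegfa, the vascular growth factor, was already at 94.4 FPKM on day -3 and reached 567. Lep, which encodes leptin, came to only 1.10 FPKM on day 7 from a listed 0. The exceptions were Serpinf1, an inhibitor of blood vessel growth, which was lower at 209 FPKM from 439, and Angptl2, at 31.4 from 65.4. With both libraries scaled to one total, neither reached the size rule, and 20 members were higher and 0 lower.

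Complement was represented by more than adipsin. Of 11 compared complement genes 6 were higher and 1 was lower, and the median difference was 1.08. C3, the central component, was at 0.109 FPKM on day -3, 0.168 on day 0, 25.4 on day 2 and 258 on day 7. The gene lower on day 7 was Masp1, a protease of the lectin pathway, at 45.7 and 4.65 FPKM. The RefSeq promoter window of C3 is shown because it holds a match to TTNNGCAA, letters that C/EBP factors bind, at position -45 from the start. It lies on the minus strand of assembly GRCm38.p6 at chr17:57228087-57228386, and the match is in capitals. It is on the other strand, so it reads TTGCNNAA in the line printed.
C3: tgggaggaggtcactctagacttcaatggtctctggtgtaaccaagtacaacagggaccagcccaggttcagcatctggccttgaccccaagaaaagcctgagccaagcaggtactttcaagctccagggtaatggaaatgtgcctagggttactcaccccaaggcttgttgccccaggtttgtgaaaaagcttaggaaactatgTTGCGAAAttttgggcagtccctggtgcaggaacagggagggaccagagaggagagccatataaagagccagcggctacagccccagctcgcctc
This motif, searched on both strands, was found in 10.8% of the 32851 windows of the table. A match is a description and not a binding site.

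Genes of lipid storage were mostly higher. Of 15 lipid droplet and lipolysis genes 13 were higher and 0 lower, and the median difference was 3.11. G0s2, an inhibitor of the main triglyceride lipase, was at 0.166 FPKM on day -3, 1.30 on day 0, 92.0 on day 2 and 358 on day 7. Plin1, the droplet coat protein of mature fat cells, was at 0.0575, 0.0792, 30.6 and 219 FPKM. Lipe, hormone-sensitive lipase, was at 1.11, 3.07, 151 and 246 FPKM. So Plin1, Lipe and G0s2 were low together on days -3 and 0 and high together on day 7. The other perilipin coat genes differed in their early levels. Plin2 and Plin3 were already at 39.1 and 18.6 FPKM on day -3, while Plin4 and Plin5 were at 1.03 and 0.0332. The members within 2-fold were Cideb, at 3.90 and 1.83 FPKM, and Faf2, at 43.1 and 29.5. Cidea, a droplet protein of brown fat, was listed at 0 in the first 3 libraries and was at 8.81 FPKM on day 7.

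Of 14 fatty acid uptake genes 8 were higher and 0 lower. Lpl, the lipase that frees fatty acids from lipoproteins, was at 23.8 FPKM on day -3, 1842 on day 2 and 1264 on day 7. Cd36, a fatty acid transporter, was at 0.102, 140.5 and 193 FPKM. Fabp4 had passed its day 7 level on day 2, when it was at 4811 FPKM. Of 20 genes of triglyceride synthesis and glyceroneogenesis 12 were higher and 3 lower. Gpd1, which makes glycerol 3-phosphate, was at 0.355 FPKM on day -3 and 189 on day 7, and Pcx, pyruvate carboxylase, was at 2.91 and 382. The lower members were Agpat4 and Agpat6, acyltransferase genes, and Lpin3. Pck1, the enzyme classically named for glyceroneogenesis, reached only 1.20 FPKM.

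Of 24 genes of fatty acid synthesis, elongation and desaturation 13 were higher and 4 lower. Mlxipl, which encodes the glucose-sensing factor ChREBP, was at 0.0339 FPKM on day -3, 7.88 on day 2 and 107 on day 7. Thrsp, a lipogenic gene induced by thyroid hormone, was at 0.123, 0.747 and 78.3 FPKM. Fasn, fatty acid synthase, was at 175 FPKM on day -3 and 321 on day 7, a difference of 0.87 that is below the size rule, but past it when both libraries are scaled to one total. The sterol branch did not go with the fatty acid branch. Of 22 cholesterol genes 3 were higher and 7 lower, and the median was -0.06. Insig1, which holds back the sterol-sensing factors, was among the higher members, with 13.5 FPKM on day -3 and 82.2 on day 7. Srebf1, the factor tied to fatty acid synthesis, was at 50.9 and 622 FPKM, and Srebf2, tied to cholesterol synthesis, at 93.3 and 63.5.

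Many genes of mitochondrial pathways were higher. Of 74 compared nuclear genes of the respiratory chain and ATP synthase 45 were higher and 0 lower, and the median difference was 1.11. The counts were 19 of 27 for the citric acid cycle and pyruvate entry, 21 of 24 for fatty acid oxidation and 20 of 25 for the breakdown of branched-chain amino acids. In those 3 lists 0 genes were lower, and the medians were 1.32, 2.05 and 2.30. Acadm, which oxidizes medium-chain acyl-CoA, was at 10.7 FPKM on day -3, 32.9 on day 0, 64.4 on day 2 and 110.0 on day 7. Aldh6a1, which acts in valine breakdown, was at 1.17, 8.39, 50.9 and 109.7 FPKM. Both stepped up in every interval. Cpt1a, the liver-type gate of fatty acid entry, did not: it was at 15.5, 36.6, 38.7 and 8.01 FPKM.

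The machinery that makes mitochondria stood differently. Of 73 mitochondrial ribosomal protein genes 0 were higher and 1 was lower, with a median of 0.02, near that of all compared genes. Of 31 genes of mitochondrial biogenesis, import and dynamics 5 were higher and 2 lower. Ppargc1b, which encodes the coactivator PGC-1β, was at 0.924 FPKM on day -3 and 42.3 on day 7. Its relative Pprc1 went down from 83.0 to 15.7 FPKM. Tfam, which packs and transcribes mitochondrial DNA, was at 34.9 and 44.6 FPKM, within 2-fold. Lonp1, the matrix protease, was at 60.1 and 325 FPKM.

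Peroxisomes, which shorten very long and branched fatty acids, were higher for 24 of 32 genes and lower for 0, with a median difference of 1.61. Pex11a, which divides peroxisomes, was at 3.28 FPKM on day -3 and 77.1 on day 7, and Cat, catalase, at 27.3 and 343. Among 39 antioxidant and glutathione genes 15 were higher and 4 lower. Mgst1, a membrane glutathione transferase, was at 3.40 FPKM on day -3 and 479.6 on day 7. Gpx8, a glutathione peroxidase of the endoplasmic reticulum, was at 85.1 and 9.26 FPKM. Of 23 glycolysis genes 11 were higher and 0 lower, and the median was 0.98. Pfkp, a phosphofructokinase, was at 16.9 FPKM on day -3 and 129.7 on day 7. Aldoa, the aldolase, was at 363 and 1985 FPKM, which put it among the 12 most abundant genes of the day 7 library.

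Of 19 compared genes of brown fat and thermogenesis, of 28 in the list, 16 were higher and 1 was lower, and the median difference was 2.33. Some members, among them Cox8b, passed the limit of 1 FPKM only through day 7. That leans the count upwards, so it is a description. Cox7a1, a cytochrome oxidase subunit of brown fat and muscle, was at 0.220 FPKM on day -3, 1.96 on day 0, 1.59 on day 2 and 132 on day 7. Kcnk3, a potassium channel found in brown fat, was at 0.136, 0.0585, 13.6 and 87.9 FPKM. Mb, which encodes the oxygen store myoglobin, was at 0.0475, 0.0755, 0.631 and 65.1 FPKM. All 3 had most of their gain after day 2 on the FPKM scale. Other brown fat genes stayed at lower levels on day 7, where Cox8b was at 4.38 FPKM, Elovl3 at 1.91 and Prdm16, a zinc finger regulator of brown fat, at 2.54. Ucp2, a relative of Ucp1 that is found in many tissues, was at 1.42 FPKM on day -3 and 49.9 on day 7.

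The receptors and switches through which fat cells respond to hormones did not go together. For insulin signalling and glucose transport 19 of 38 genes were higher and 3 lower. Slc2a4, the insulin-responsive glucose transporter GLUT4, was at 0.0432 FPKM on day -3 and 77.8 on day 7. Ppp1r3b and Ppp1r3c, which bring protein phosphatase 1 to glycogen, were at 0.395 and 0.0561 FPKM on day -3 and at 76.6 and 47.1 on day 7. Igf1r, the receptor for insulin-like growth factor, was lower, at 25.2 and 9.22 FPKM, and Insr, the insulin receptor, was higher, at 7.77 and 36.7. Of 22 genes of beta-adrenergic and cAMP signalling 8 were higher and 6 lower, and the median was -0.08. Adrb3, the beta-adrenergic receptor of fat, was at 0.107 FPKM on day -3 and 31.6 on day 7. Adra2a, an alpha-adrenergic receptor that lowers cAMP, was at 6.29 and 0.164 FPKM, and Akap12, which anchors protein kinase A, was at 193 and 14.9.

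Among adipogenic transcription factors 20 of 25 were higher and 0 lower, and the median difference was 2.29. Cebpa, the C/EBP of the mature fat cell, was at 1.12 FPKM on day -3 and 234 on day 7, a difference of 6.80. Klf15, a zinc finger factor induced by glucocorticoids, was at 0.0553 and 23.1 FPKM. Nr1h3, the sterol receptor LXRα, was at 0.141 and 23.4 FPKM. Nuclear receptors as a class were higher for 13 of 29 and lower for 2. The lower members were Vdr, the vitamin D receptor, at 9.10 and 2.70 FPKM, and Nr4a2, an immediate early receptor gene, at 8.27 and 2.00.

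Most genes that mark or hold the precursor state were lower. Of 29 compared genes 19 were lower and 3 higher, with a median difference of -1.62. Gata2, a factor that restrains adipogenesis, was at 15.4 FPKM on day -3, 9.41 on day 0, 2.46 on day 2 and 0.517 on day 7. Foxc2, a forkhead factor, was at 26.8, 3.78, 2.57 and 1.54 FPKM, and Wnt10b, a Wnt ligand that blocks adipogenesis, at 5.18, 4.90, 0.173 and 0.196. Foxc2 had most of its drop before day 0 on the FPKM scale, while Wnt10b kept its level to day 0 and was near 0 on day 2. The members that were higher were Ddit3, a stress-induced C/EBP relative, Pdgfra, a growth factor receptor of precursors, and Foxc1. Pdgfra was at 1.64 FPKM on day -3, 31.1 on day 2 and 11.7 on day 7, and was lowest in the proliferating cells.

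In the lists of TGF-beta and BMP, growth factor and Wnt genes more members were lower than higher. Over all compared genes 20.3% were higher and 14.7% lower. Of 39 genes of the TGF-beta and BMP pathway 15 were lower and 7 higher, with a median difference of -0.46. Inhba, a subunit of activin, was at 79.0 FPKM on day -3, 10.1 on day 0, 1.85 on day 2 and 2.66 on day 7. It had its main drop on the FPKM scale before the hormones were added. Of 37 growth factor ligands and receptors 17 were lower and 10 higher. Hbegf, a ligand of the EGF receptor, was at 43.3 FPKM on day -3 and 0.553 on day 7, and Csf1, the growth factor of macrophages, at 467 and 33.3. Upwards were Igf1, at 1.73 and 24.9 FPKM, and Kitl, the ligand of the KIT receptor, at 1.89 and 26.0. For the Wnt pathway 9 of 28 genes were lower and 4 higher. Its receptors split, with Fzd6 at 16.6 FPKM on day -3 and 1.45 on day 7 and Fzd4 at 1.36 and 20.2.

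**Figure D2:**
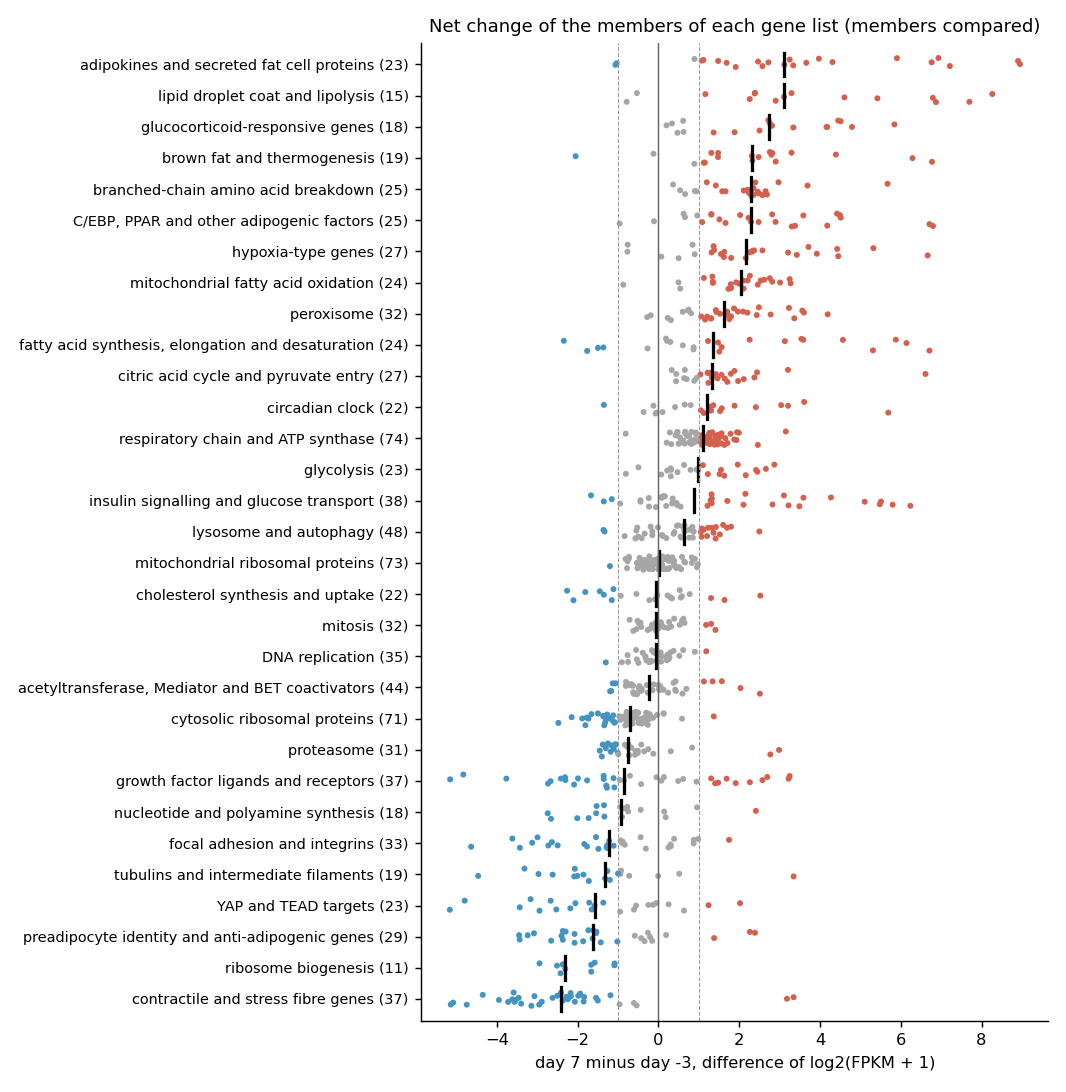
Each row is a gene list with its number of compared members, each point is 1 member, and the x axis is day 7 minus day -3 on log2(FPKM + 1), from 1 library a day. Red and blue points are at least 2-fold higher and lower, dashed lines mark that limit, and the black bar is the median, which runs from 3.12 for secreted fat cell proteins to -2.41 for contractile genes.

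The contractile cytoskeleton was the list with the lowest median. Of 37 compared contractile and stress fibre genes 32 were lower and 2 higher, with a median difference of -2.41, and the list held 5.78% of all listed FPKM on day -3 and 0.813% on day 7. Acta2 was at 6017 FPKM on day -3, 808 on day 0, 260.1 on day 2 and 223 on day 7, a difference of -4.75. Cnn1, calponin of smooth muscle, was at 116, 14.0, 1.71 and 2.30 FPKM. Tagln, which cross-links actin, was at 1367, 135, 52.3 and 65.9 FPKM. These genes were several-fold down at confluence and lower again on day 2. The members that were higher were Mylk, the kinase of myosin light chain, at 0.394 and 11.6 FPKM, and Des, the muscle intermediate filament desmin, at 0.289 and 12.1.

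The CArG box, the site of serum response factor, was searched on both strands in the RefSeq promoter windows, which run from 250 bases before to 50 bases after a gene's start. It was found in 1.63% of the 32851 windows of the table. Of the 33 contractile genes that have a window, 6 had it in the first listed window, namely Cnn2, Fhl1, Fhl2, Myl9, Srf and Vcl. For list members only that window was searched, and 1798 of the compared genes have more than 1. The share over all windows and the count of genes are thus not in like units. The windows of Cnn2 and Myl9 on assembly GRCm38.p6 are printed because these genes had differences of -3.54 and -3.40, with the box in capitals. Cnn2, another calponin, was at 490.3 FPKM on day -3 and 41.2 on day 7. Its window is on the plus strand at chr10:79988350-79988649, with the box at position -56. Myl9, a light chain of smooth muscle myosin, was at 341 and 31.3 FPKM. Its window is on the plus strand at chr2:156775214-156775513, with the box at -161.
Cnn2: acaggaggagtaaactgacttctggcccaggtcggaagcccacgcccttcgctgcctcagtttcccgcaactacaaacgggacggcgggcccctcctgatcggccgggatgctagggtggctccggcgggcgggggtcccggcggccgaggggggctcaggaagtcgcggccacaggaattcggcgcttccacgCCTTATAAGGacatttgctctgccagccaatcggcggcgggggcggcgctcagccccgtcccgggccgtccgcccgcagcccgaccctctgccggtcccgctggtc
Myl9: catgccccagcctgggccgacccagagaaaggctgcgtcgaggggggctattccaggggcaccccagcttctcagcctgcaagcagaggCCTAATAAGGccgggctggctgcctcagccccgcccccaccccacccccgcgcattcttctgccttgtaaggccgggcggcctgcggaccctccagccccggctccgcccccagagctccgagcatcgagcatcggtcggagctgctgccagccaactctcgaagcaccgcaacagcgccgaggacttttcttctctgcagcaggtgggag
No match in a window says only that the box is not within those bases.

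Targets of YAP and TEAD, the factors that respond to stretch and cell density, were lower for 13 of 23 genes and higher for 2, with a median difference of -1.58. Ctgf, a secreted matrix-associated protein, was at 1055 FPKM on day -3, 32.9 on day 0, 9.21 on day 2 and 28.4 on day 7. Ankrd1, an ankyrin repeat protein of stretched muscle, was at 452, 46.6, 4.90 and 15.3 FPKM. Both had their main drop before day 0 on the FPKM scale and were lowest on day 2. Yap1 itself was at 70.9 and 36.2 FPKM, just within 2-fold but not so under median-ratio scaling, and Tead1 was at 19.2 and 6.83. The TEAD motif GGAATG, on either strand, was found in 14.7% of the windows of the table. In this list it was found in the first listed window of 12 of 16 genes. Only 16 of the 23 compared genes have a window, under the 80% needed, so a comparison of shares is void. The window of Ankrd1 is printed for its 2 matches, at positions -210 and -123, in capitals. It lies on the minus strand of GRCm38.p6 at chr19:36119795-36120094.
Ankrd1: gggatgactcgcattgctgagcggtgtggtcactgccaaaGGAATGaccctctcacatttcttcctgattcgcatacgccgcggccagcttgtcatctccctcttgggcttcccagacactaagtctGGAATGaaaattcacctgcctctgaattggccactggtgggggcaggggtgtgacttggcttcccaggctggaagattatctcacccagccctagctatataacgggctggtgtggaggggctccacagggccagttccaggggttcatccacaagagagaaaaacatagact

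Attachment and matrix went down in part. Of 33 focal adhesion and integrin genes 18 were lower and 1 was higher. Cd44, the receptor of hyaluronan, was at 299 FPKM on day -3 and 11.0 on day 7, and Itga5, the alpha chain of the fibronectin receptor, was at 309.8 and 24.3. The exception was Itga1, a chain of a collagen receptor, at 1.51 and 7.43 FPKM. Matrix glycoproteins and proteoglycans were lower for 14 of 30 and higher for 6. Tnc, tenascin C, was at 245 FPKM on day -3 and 11.9 on day 7, and Prelp, a leucine-rich repeat proteoglycan, was at 0.0419 and 10.7. The proteases and inhibitors that remodel matrix were lower for 10 of 27 genes and higher for 3. Timp1, an inhibitor of matrix metalloproteinases, was at 429 FPKM on day -3, 62.9 on day 0, 13.7 on day 2 and 13.1 on day 7.

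Collagens went both ways, with 7 of 21 genes higher, 6 lower and a median difference of 0.14. Col8a1, a short-chain collagen, was at 35.8 FPKM on day -3 and 3.52 on day 7, and Col1a1, the main fibrillar collagen, was at 1282 and 674. Upwards were Col15a1, a collagen of basement membrane zones, at 14.1 and 121 FPKM, and Col6a1, of the microfibrils around fat cells, at 63.7 and 321. Of 17 basement membrane genes 6 were higher and 1 lower. Lama4, the laminin chain that surrounds fat cells and vessels, was at 0.298 FPKM on day -3, 1.83 on day 0, 15.8 on day 2 and 77.8 on day 7. Sparc, the member lowered, was at 1638 and 733 FPKM at the ends. Several fibrillar collagens peaked between the ends, which the net change does not show: Col3a1 was at 118, 1062, 963 and 256 FPKM. Of 19 genes of tubulins and intermediate filaments 13 were lower and 1 was higher, which was Des. Nes, nestin, was at 103 FPKM on day -3 and 3.69 on day 7.

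The compared genes of ribosome biogenesis were lower, and other growth machinery was lower in part. All 11 compared genes of ribosome biogenesis, of 34 in the list, were lower, and the median difference was -2.31. With both libraries scaled to one total, 9 of the 11 were past the size rule. Rrp9, which processes ribosomal RNA, was at 78.7 FPKM on day -3, 12.2 on day 0, 30.6 on day 2 and 9.35 on day 7. Npm1, nucleophosmin, was at 271, 105, 116 and 84.6 FPKM. The main step down came before day 0, and Rrp9 was partly back on day 2. The list's other genes were not among those listed and are not analysed here. Of 18 genes of nucleotide and polyamine synthesis 8 were lower and 1 was higher. Ctps, CTP synthase, was at 93.9 FPKM on day -3 and 13.2 on day 7, and Odc1, which starts polyamine synthesis, at 66.2 and 9.62. The exception was Impdh1, for guanine nucleotides, at 45.2 and 245 FPKM. Translation factors were lower for 10 of 33 and higher for 0, tRNA synthetases lower for 5 of 20 and higher for 0, and heat shock chaperones lower for 6 of 14 and higher for 0. Of 71 cytosolic ribosomal protein genes 19 were lower and 1 was higher, with a median of -0.70. These genes have many near-identical processed copies, so the values of single members are uncertain.

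The proteasome was lower in part. Of 31 compared genes 12 were lower and 2 higher, with a median of -0.74. Psmd1, a subunit of the regulatory cap, was at 108 FPKM on day -3 and 38.9 on day 7. The higher ones were Psmb8 and Psmb9, catalytic subunits of the immunoproteasome, at 6.21 and 6.92 FPKM on day 7, with Psmb8 at 0.0564 FPKM on day -3 and Psmb9 lower still. They belong to antigen presentation, where 11 of 14 genes were higher and 0 lower, and the median difference was 2.65. H2-K1, a class I molecule, was at 11.2 FPKM on day -3, 40.0 on day 0, 67.6 on day 2 and 187 on day 7. Tap2, of the peptide transporter, was at 1.14, 7.82, 7.44 and 21.2 FPKM. Class I genes share sequence, so the split of fragments among H2-K1, H2-D1 and their relatives is uncertain. Of 24 interferon-responsive genes 12 were higher and 0 lower, and many peaked in between. Irf7, which drives interferon production, was at 0.987 FPKM on day -3, 22.7 on day 0, 2.79 on day 2 and 7.92 on day 7. It was highest at confluence. Of 48 lysosome and autophagy genes 15 were higher and 2 lower.

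Genes of cell division were close to level. Of 32 mitosis genes 3 were higher and 0 lower, with a median of -0.06, and of 35 replication genes 1 was higher and 1 was lower, with a median of -0.07. Cdk1, the mitotic kinase, was at 242 FPKM on day -3, 164 on day 0, 182 on day 2 and 157 on day 7. The labels call day -3 proliferating, but these genes did not set thon day apart from the mature cells by the size rule. The D-type cyclins, which open the cell cycle, were lower. Ccnd1 was at 69.7, 20.6, 1.38 and 1.26 FPKM, Ccnd2 at 98.9, 47.8, 53.9 and 26.2, and Ccnd3, past the size rule only without scaling to one total, at 58.2 and 28.4 at the ends. Of 25 inhibitors of the cell cycle and p53 targets 14 were higher and 3 lower, with a median of 1.07. Trp53inp1, a p53-induced protein, was at 1.71 FPKM on day -3 and 65.5 on day 7, and Cdkn1c, an inhibitor of G1 kinases, at 4.13 and 37.2. Trp53, the gene of p53, was lower, at 94.3 and 32.0 FPKM. So cell division genes and their inhibitors were present together on day 7.

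A group usually named for low oxygen was higher late. Of 27 hypoxia-type genes 21 were higher and 0 lower, and the median difference was 2.16. Ndufa4l2, a mitochondrial protein, was at 0.144 FPKM on day -3, 0.220 on day 0, 0.911 on day 2 and 115 on day 7. Bnip3, which marks mitochondria for removal, was at 5.68, 11.5, 30.3 and 266 FPKM, and Ero1l, an oxidase of the endoplasmic reticulum, at 10.7, 17.1, 45.3 and 256. Each was several-fold higher on day 7 than at any other time. Hif1a, the gene of the oxygen-regulated factor itself, was at 54.8 and 31.7 FPKM, within 2-fold, and Epas1, which encodes HIF-2α, at 0.409 and 14.1. The core letters of the HIF site, ACGTG on either strand, were found in 19.6% of all windows of the table. In this list they were found in the first listed window of 15 of 21 genes. Only 21 of the 27 compared genes have a window, so a comparison of shares is void. These letters are also part of the E-box CACGTG of the clock factors. The windows of Bnip3 and Ero1l are printed because these genes had differences of 5.32 and 4.45. Both lie on the minus strand of GRCm38.p6, at chr7:138909457-138909756 and chr14:45318523-45318822. In Bnip3 the letters match on both strands within a single CACGTG, at positions -108 and -107, and in Ero1l they match on the other strand, as CACGT in the line printed, at -63. The matches are in capitals.
Bnip3: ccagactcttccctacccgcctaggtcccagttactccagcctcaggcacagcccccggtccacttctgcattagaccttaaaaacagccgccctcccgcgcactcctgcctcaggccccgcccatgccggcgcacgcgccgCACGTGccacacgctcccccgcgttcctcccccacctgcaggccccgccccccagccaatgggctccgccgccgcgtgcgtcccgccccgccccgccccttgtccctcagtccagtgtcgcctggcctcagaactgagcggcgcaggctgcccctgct
Ero1l: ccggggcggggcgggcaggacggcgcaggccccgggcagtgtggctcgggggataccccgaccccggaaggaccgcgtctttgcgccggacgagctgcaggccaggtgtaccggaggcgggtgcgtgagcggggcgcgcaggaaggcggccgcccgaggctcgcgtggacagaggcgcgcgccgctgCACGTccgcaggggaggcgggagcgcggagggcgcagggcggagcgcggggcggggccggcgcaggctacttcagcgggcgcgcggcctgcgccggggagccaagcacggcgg

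Genes that respond to glucocorticoids were mostly higher. Dexamethasone is named for the induction medium and not for the medium after day 2. Of 18 compared genes 13 were higher and 0 lower, and the median difference was 2.74. Mt2, a metallothionein, was at 17.4 FPKM on day -3, 45.0 on day 0, 246 on day 2 and 1052 on day 7. Hsd11b1, which makes active glucocorticoid inside cells, was at 0.0885, 0.0340, 11.8 and 29.1 FPKM. These were higher on day 7 than on day 2, but Klf15 was at 26.4 FPKM on day 2 and 23.1 on day 7, and the median level of the list was 55.2 FPKM on day 2 and 37.7 on day 7. The list shares members with other lists, among them Pdk4 and Angptl4, which are also targets of PPARs. Of 22 clock genes 13 were higher and 1 was lower. Per3, a period gene, was at 2.55 FPKM on day -3 and 42.2 on day 7, and Bhlhe40, a repressor of clock and differentiation genes, at 16.2 and 158. The core activators Arntl and Clock were within 2-fold, at 4.52 and 4.91 and at 15.6 and 15.0 FPKM. The sources used here do not give the hour of harvest.

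Iron handling was higher for 11 of 29 genes and lower for 2. Steap4, a metalloreductase of fat, was at 0.0345 FPKM on day -3 and 53.4 on day 7, and its relatives Steap1 and Steap2 were lower, at 30.8 and 7.98 and at 31.2 and 8.81 FPKM. Hmox1, which breaks down heme, was at 41.7 FPKM on day -3, 44.9 on day 0, 42.9 on day 2 and 476 on day 7. Prostaglandin synthesis was lower for 7 of 17 genes and higher for 4. Ptgs2, the inducible cyclooxygenase, was at 89.6, 6.04, 0.873 and 0.774 FPKM. Pla2g16, a phospholipase of fat cells, was at 7.51 FPKM on day -3 and 98.3 on day 7. For retinoid and steroid handling 9 of 20 genes were higher and 2 lower. Crabp1, which binds retinoic acid in the cell, was at 55.7, 283, 7.11 and 1.21 FPKM, and Adh1, an alcohol dehydrogenase that also acts on retinol, at 0.143, 0.635, 523 and 75.8. For both of these the net difference misses an extreme in between, on day 0 for Crabp1 and on day 2 for Adh1.

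Related genes often exchanged places. In 18 of 33 gene families the most abundant member differed between the ends, and in 10 families members differed by at least 2-fold in both directions. Among stearoyl-CoA desaturases Scd2 led on day -3, with 126 FPKM against 41.5 for Scd1, and Scd1 led on day 7, with 2495 against 1110.5 for Scd2. Pyruvate dehydrogenase kinases, which shut carbohydrate out of the citric acid cycle, turned from Pdk3, at 32.6 and 13.6 FPKM, to Pdk1, at 10.2 and 239. Pdk2 and Pdk4 were also higher, at 41.5 and 64.0 FPKM on day 7 from 0.892 and 8.61. Lpin1, a phosphatidate phosphatase, held 4.28% of the summed FPKM of the lipin family on day -3 and 90.9% on day 7.

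In some signalling families the balance moved while the lead stayed. Akt1, the most abundant AKT kinase on both days, was at 234 FPKM on day -3 and 72.7 on day 7, and Akt2, the form tied to insulin action, was at 17.2 and 58.4. Among the regulatory subunits of protein kinase A Prkar1a led on both days, at 136 and 86.3 FPKM, while Prkar2a was at 76.5 and 20.5 FPKM, and Prkar2b, the form of fat and brain, at 32.0 and 83.4. Among glucose transporters the lead did change. Slc2a1 ended near where it began, at 62.2 and 65.3 FPKM, and Slc2a4 led on day 7, at 77.8. Fatty acid elongases were lower for Elovl1, Elovl4 and Elovl6, with Elovl6 at 19.7 and 5.07 FPKM, and higher only for Elovl3. Elovl5 was at 53.6 and 62.1 FPKM, within 2-fold, and led the family on day 7, where Elovl1 had led on day -3.

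Structural families shrank. The summed FPKM of the 5 listed actins went from 11629 on day -3 to 969 on day 7, and the share of Acta2 in it from 51.7% to 23%. All 4 tropomyosin genes were lower, and Tpm4, a non-muscle form, took the lead from Tpm1. Tropomyosins as a sum were at 2611 and 296 FPKM. In the S100 family of calcium-binding proteins S100a6 was at 2849 FPKM on day -3 and 279 on day 7, while S100a1 was at 3.94 and 103. Annexins, which bind membranes, included both Anxa3, at 329 and 13.4 FPKM, and Anxa8, at 0.0374 and 42.0. Timp1 gave the lead of its family to Timp2, which was at 175 and 35.9 FPKM. Of the ID proteins, which hold back helix-loop-helix factors, Id3 was at 242 and 24.7 FPKM and Id2, within 2-fold, at 38.8 and 44.4.

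**Figure D3:**
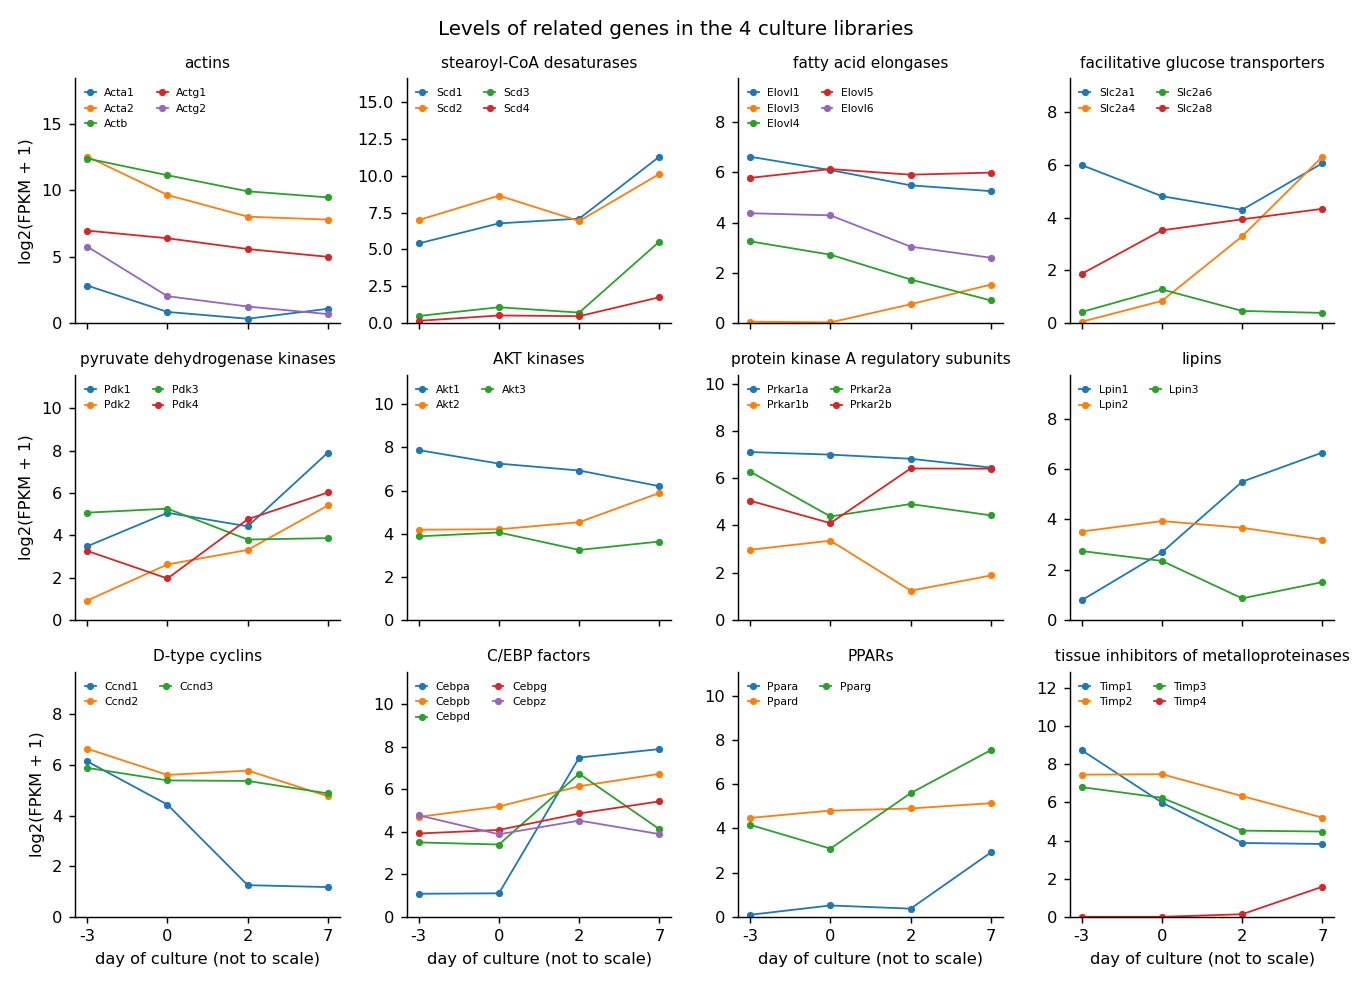
Each panel is 1 gene family, with log2(FPKM + 1) on the y axis and the 4 culture days on the x axis, not to scale, each point being 1 library. Lines cross where the leading member changes, as for Scd1 and Scd2 or Pdk1 and Pdk3, and Akt1 and Akt2 come together from 234 and 17.2 FPKM to 72.7 and 58.4.

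The factors and cofactors that the study profiled on chromatin were split between genes within 2-fold and genes past it. Over all compared genes 65% were within 2-fold. Mll2, read as the gene of the H3K4 methyltransferase MLL4 under an older symbol since Wbp7, an older symbol of a relative, is listed on its own, was at 29.1 FPKM on day -3 and 27.7 on day 7. Crebbp, which encodes CBP, was at 17.6 and 17.7 FPKM, and Ep300, which encodes p300, at 31.0 and 33.8. Med1, a Mediator subunit, was at 24.9 and 17.6 FPKM, Ctcf at 42.4 and 37.0, and Polr2a, the large subunit of RNA polymerase II, at 72.5 and 64.6. None of these 6 reached a difference of 1, while the profiled factors Cebpa, Cebpb, Pparg and Ebf2 did, with differences of 6.80, 2.02, 3.38 and 2.48. Mll3 was higher, at 6.05 and 16.1 FPKM. Of 20 genes of H3K4 methyltransferase complexes 3 were higher and 1 was lower, and of 44 acetyltransferase, Mediator and BET genes 5 were higher and 4 lower. Both shares are below those of all compared genes. The largest differences among the coactivators were those of Ncoa1, a coactivator of nuclear receptors, at 3.63 and 25.4 FPKM, and Kat2b, an acetyltransferase, at 11.2 and 49.0. Cdk8 and Cdk19, alternative kinases of Mediator, went apart, at 24.6 and 10.7 and at 4.83 and 16.3 FPKM.

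The net change was made up of a part before the hormones, from day -3 to day 0, and a part after, from day 0 to day 7. These legs share the day 0 library, so their values are given side by side and not related to each other. From day 0 to day 7, 1350 of 10974 compared genes (12.3%) were higher and 1395 (12.7%) lower, against 2196 and 1597 from day -3. For ribosome biogenesis the median difference was -1.76 over the leg before the hormones and -0.31 over the leg after. Contractile genes had medians of -1.18 and -1.35, and YAP and TEAD targets of -0.98 and -0.45. Lipid droplet genes had 0.06 and 2.89, and the respiratory chain -0.10 and 1.21. Lists thus differed in the leg over which their difference arose. In matrix glycoproteins the legs had opposite signs, with 0.67 before and -1.63 after, as had interferon-responsive genes, with 2.35 and -1.14.

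**Figure D4:**
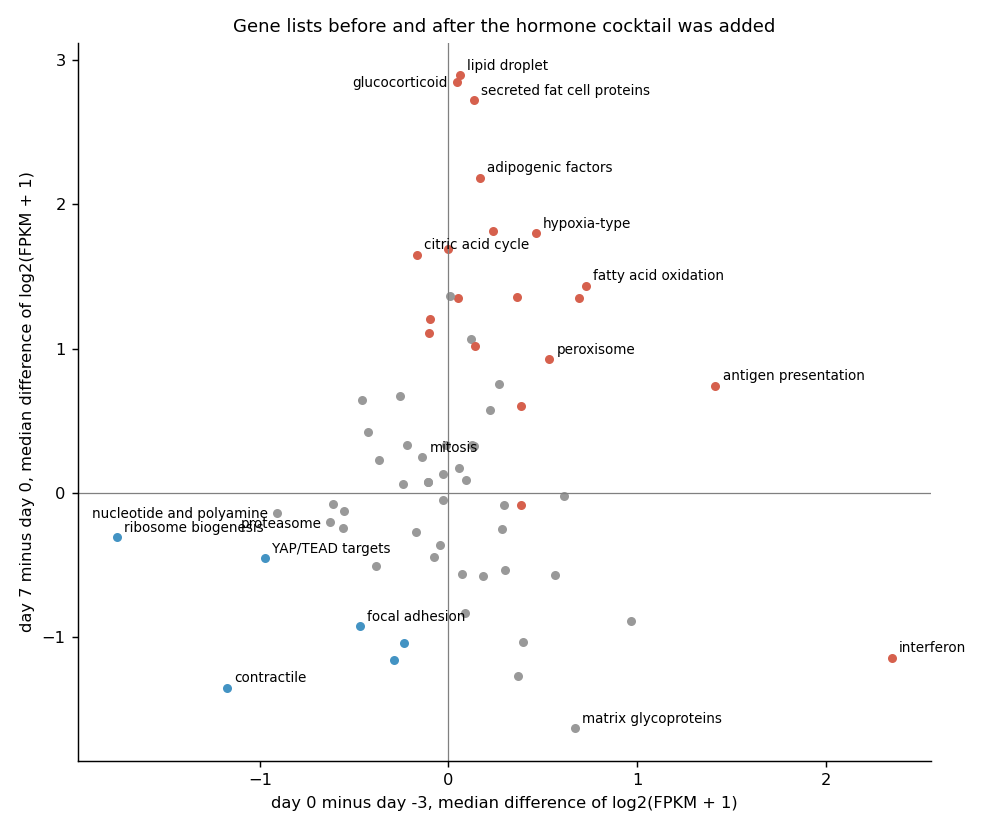
Each point is a gene list of at least 8 compared members, with its median difference of log2(FPKM + 1) from day -3 to day 0 on the x axis and from day 0 to day 7 on the y axis. Red and blue mark lists whose net median is at least 1 or at most -1; ribosome biogenesis lies at -1.76 and -0.31, and lipid droplet genes lie at 0.06 and 2.89, along different axes.

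By day 2 more of the lower than of the higher genes were past the midpoint of their net difference. Of the 1597 lower genes 37.1% had passed the midpoint of their net log2 difference by day 0 and 78.1% by day 2. Of the 2196 higher genes 36.8% had passed it by day 0 and 56.6% by day 2. The shares were alike at confluence and apart on day 2. Returns were hidden in the net value too. Of the 7035 genes within 2-fold between the ends, 221 were at least 2-fold above both ends on day 0 and 134 on day 2. Another 49 were at least 2-fold below both ends on day 0 and 79 on day 2. On day 2, 27 genes were at least 4-fold above both ends, among them Vcan, the proteoglycan versican, at 77.8, 309.7, 574 and 54.8 FPKM, and Cebpd, the early C/EBP factor, at 10.3, 9.53, 104 and 16.3. At least 4-fold below both ends on day 2 were 7 genes, among them the glycolytic gene Eno1, at 400.1, 185, 91.3 and 498 FPKM, and short of that limit was Pkm2, pyruvate kinase, at 567, 435, 144 and 658.

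In brown adipose tissue, which the choice of genes did not use, median levels were higher in bins of a more upward net change. These bins differ in day 7 level too, with medians of 65.5 FPKM for differences of at least 4 and 1.60 for those of at most -4. The part of the day 7 level in the tissue medians was not tested. Among genes with a tissue value the median was 7.16 RPKM for those higher on day 7, 4.97 for those within 2-fold and 2.36 for those lower. A tissue level of at least 10 RPKM was found for 41.7% of the higher and 17.2% of the lower genes. The 139 genes with a difference of at least 4 had a median of 40.8 RPKM, and the 46 with a difference of at most -4 had one of 0.276. The tissue holds vessels, nerves and immune cells beside fat cells, and is 1 library in another unit, so levels are compared only among genes within it. Car3, a carbonic anhydrase of fat and muscle, was at 167 FPKM on day 7 and 1631 RPKM in the tissue. Acta1, the actin of skeletal muscle, was at 534 RPKM there, and the part of muscle in the tissue levels was not tested. Retn was at 40.8 RPKM, Cfd at 407 and Gpd1 at 1269. Of the genes most lowered in culture, Ptgs2 was at 0.0902 RPKM and Timp1 at 0.211. Tm4sf1, a membrane protein that was at 323 and 7.44 FPKM in culture, had the highest tissue level of the 15 genes most lowered, at 10.2 RPKM. Elovl6 went against the trend, being lower in the mature cells and at 347 RPKM in the tissue. Cox8b went with it in direction, as it was higher on day 7, but it was at only 4.38 FPKM there and at 956 RPKM in the tissue.

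**Figure D5:**
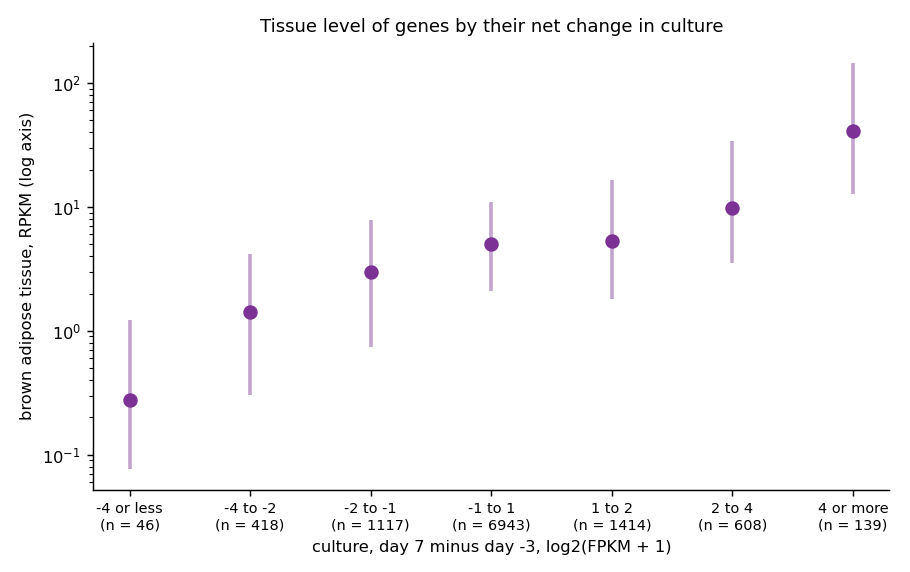
Points give the median RPKM in the brown adipose tissue library (log axis) of genes binned by day 7 minus day -3 on log2(FPKM + 1), and bars run from the lower to the upper quartile of the genes in a bin. The medians climb from 0.276 RPKM in the lowest bin to 40.8 in the highest, with overlapping quartile ranges between neighbouring bins.

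Some abundant genes held one level throughout. Bag6, a chaperone of membrane proteins, was at 137 FPKM on day -3, 135 on day 0, 139 on day 2 and 137 on day 7. Tcf25 was at 105, 107, 93.8 and 109 FPKM, and Eif4b, a translation initiation factor, at 235, 229, 206 and 242. They had the smallest ranges among genes with a mean of at least 100 FPKM over the 4 culture libraries, together with Tmpo, Paics, Ewsr1, Eif3k and Clta. At the limit of the size rule, Rwdd2a had a difference of 1.0009 and counted as higher, and Exoc3l, with 0.9996, did not. On the lower side Tmod3 counted, with -1.0003, and Eif2s3x, with -0.9993, did not. At the limit of 1 FPKM, 1700019G17Rik was compared, with a larger value of 1.00 FPKM, and Scx, a factor of tendon precursors with a larger value of 0.998 FPKM at the ends, was not.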

How the data were processed

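RNA-seq of poly(A)-selected RNA, per the labels' protocols, was used from 5 of the series' 83 samples: 4 culture days and brown adipose tissue. The authors deposited FPKM per gene for the culture, and each listed gene exceeds 1 FPKM in at least 1 of the 4 culture libraries. For the tissue the authors deposited RPKM per RefSeq transcript, of which the highest per gene was taken. The build is mm9, and the submitters' processing notes name CASAVA 1.8.2, TopHat2 2.0.10, Cufflinks 1.0.3 and SICER without roles. The depth is not given, so no interval or floor was computed. The day -3 and day 7 values were joined by symbol and differences taken of log2(FPKM + 1) (Python 3.11.15, pandas 2.3.3), with no scaling added. The rule was run on simulated data with large planted changes in genes not of low level. That checks the code and says nothing of the precision of these libraries. With 1 library a side there is no test.

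Members and the 72 gene lists were chosen with earlier results of these data known. Genes named are the 15 widest differences each way at 10 FPKM or more, the 12 most abundant per library, the 8 with the smallest range, the 3 widest per list each way and its most abundant member, gene family members, the profiled factors and genes beside a limit. Arntl, Atf4, Cd68, Cidea, Cideb, Clock, Cnn2, Col3a1, Eno1, Epas1, Faf2, Fasn, Hif1a, Insr, Irf7, Jun, Kdr, Lep, Myl9, Pck1, Pkm2, Prdm16, Ptrf, Tagln, Tead1, Tfam, Vcan, Xbp1, Yap1 and the genes named for a promoter match were chosen after their values were seen. Of the compared genes 79.9% have a RefSeq promoter window, so shares over all of them were not compared. Symbols are those of the files, some of them older. Some genes that the naming rule takes are not reported here.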

Additional observations from a re-analysis of the deposited data

How the results depend on the processing

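No paired analysis was possible because each day is 1 library. Each setting was changed alone. Against 2196 genes higher and 1597 lower, a pseudocount of 0.1 gave 2584 and 1805, and one of 5 gave 1243 and 1035. A limit of 10 FPKM on the larger value gave 1378 and 1232. No limit left both counts as they were, which was fixed in advance. A gene below 1 FPKM at both ends cannot reach the size rule on log2(FPKM + 1). Scaling both libraries to one total gave 2499 and 1367 and moved the median of all genes by 0.138 on the log2 scale. Median-ratio scaling gave 2080 and 1736. Of the 479 named genes with a difference, 71 had another call at the pseudocount of 5, 14 under total scaling, 13 under median-ratio scaling and 8 at the pseudocount of 0.1, and 0 took the opposite call under any of these. The pseudocount of 5 ended the calls of Acta1, Angptl2, Ccnd3, Cdk8, Cox8b, Elovl3, Foxc1, Hoxa5, Hoxa9, Itga1, Lep, Lpin3, Mll3, Nr4a2, Pck1, Prdm16, Ucp1, Vdr and Wnt10b, among genes whose values are given, beside those at a limit. By the tolerance set for list medians, 12 of 71 moved at the limit of 10 FPKM, 11 of 72 at the pseudocount of 5 and 0 under either scaling. At the limit of 10 FPKM matrix proteases and inhibitors went from -0.38 to -1.61, and complement from 1.08 to 3.92. At the pseudocount of 5 brown fat and thermogenesis went from 2.33 to 1.19, with 10 of 19 members higher. Leaving out a library leaves no comparison. Depth is unknown, so low values have no known precision.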

Other observations

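Of 28 compared chaperones of the endoplasmic reticulum and genes of the unfolded protein response, 9 were higher and 3 lower on day 7 by at least 2-fold. The lower members were Pdia5 and Pdia3, protein disulfide isomerases, and Calr, calreticulin. Pdia3 was at 482 FPKM on day -3 and 185 on day 7, and Calr at 478 and 218, a call that ends when both libraries are scaled to one total. The widest upward difference of the list was that of Ero1l, at 4.45. Xbp1, a factor of the unfolded protein response, was at 42.2 and 124 FPKM. In the serine and ATF4 list Atf4 itself was at 369.8 and 287 FPKM, within 2-fold, while its target Trib3 was at 10.3 and 126. Of that list 7 of 25 genes were higher and 3 lower, beside 20.3% and 14.7% over all compared genes.

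Of 15 AP-1 and immediate early genes 3 were higher and 3 lower, near the shares of 20.3% and 14.7% over all compared genes. Fosl1, a Fos relative, was at 76.4 FPKM on day -3, 3.60 on day 0, 0.940 on day 2 and 1.00 on day 7, and Jun was at 42.7, 16.2, 11.6 and 33.0. Etv4, a factor of the ETS family, was at 56.1, 13.2, 0.720 and 0.639 FPKM. Of 12 Kruppel-like factor genes 4 were higher and 2 lower. Klf9 was at 10.0 and 76.5 FPKM at the ends, and Klf16 at 19.2 and 5.21. Of 29 genes of the Hox clusters and their partners 3 were higher, which were Hoxa4, Hoxa5 and, except under median-ratio scaling, Hoxa9, and 7 were lower, which included Hoxb9 at 46.3 and 15.3 FPKM and Hoxc13 at 10.2 and 2.25.

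Among partners of insulin-like growth factors, Igfbp4, a binding protein, was at 2.05 FPKM on day -3 and 85.2 on day 7, while Igf2bp1, which binds the Igf2 transcript, was at 24.9 and 3.27. Of the caveolae genes, Cav2 was at 28.7 and 205 FPKM and Ptrf, the cavin of the caveolar coat, was within 2-fold at 200.1 and 167. Ak4, an adenylate kinase of the mitochondrial matrix, was at 2.03 and 19.2 FPKM, and Ak1, the cytosolic form, at 25.6 and 6.21. Agt, the precursor of angiotensin, was at 0.0117 and 59.6 FPKM. Chchd10, a mitochondrial protein, and Slc36a2, an amino acid transporter of brown fat, were at 0.368 and 0.0180 FPKM on day -3 and at 176 and 139 on day 7. In the tissue they were at 537 and 164 RPKM.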
